A study of Mus musculus with 4 samples.

Results

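The genes described here are 30 genes of cholesterol synthesis, sterol sensing, uptake, efflux and turnover, chosen by their known function and matched by symbol. All 30 are among the 24421 gene rows of the deposited tables. They comprise 18 enzymes that build cholesterol, 5 genes of the sterol sensor, 2 genes of the liver X receptors (LXR), the uptake receptor gene Lrp1, 2 efflux pump genes, and Soat1 and Cyp46a1, whose enzymes store and clear cholesterol. They were followed in 4 RNA-seq libraries of mouse brain cells deposited with a study of Noonan syndrome and ERK. The labels call 2 libraries excitatory, made from fluorescent αCaMKII-positive cells, and 2 libraries inhibitory, made from fluorescent vGAT-positive cells. Each library holds 100 cells picked by hand. The labels' protocols name αCaMKII-Cre and vGAT-IRES-Cre mice, kept by crossing to wild-type C57Bl/6J, and male animals of 3 to 5 months. They give no treatment and no Noonan allele for any of the 4 libraries, and they do not say which promoter drives the fluorescent protein or how many animals each library came from. The p-values therefore rest on the scatter among these 4 libraries, which may reflect technical variation alone.

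Cells build cholesterol from acetyl-CoA through mevalonate, the isoprenoids and squalene, and then through lanosterol and a series of sterols that are trimmed and reduced to cholesterol. Supply is set by a sensor in the endoplasmic reticulum: when sterols are low, SCAP carries the SREBP transcription factors to the Golgi to be cut and activated, and when sterols are high the INSIG proteins hold SCAP back. Oxidized sterols activate LXR, which turns on genes of cholesterol export. The blood-brain barrier keeps lipoprotein cholesterol out, so the brain makes its own. Adult neurons are thought to take up much of theirs from astrocytes, and they clear the surplus with CYP46A1, the cholesterol 24-hydroxylase.

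Values are deposited as log2(normalized reads + 1), and every difference below is excitatory minus inhibitory on that scale. Depth was estimated from the spacing of the lowest values at 61300000 to 73800000 reads per library. Mbp, a myelin gene and the highest in each library, was listed at 21.331 in all 4 libraries, and no other gene above 0 had 1 value throughout. The deposited scale therefore leaves Mbp equal, and on it the median difference of the 13619 genes tested was 0.52. Differences of the cholesterol genes are also given after median-of-ratios scaling, which brings that median to -0.01, and are called scaled there. Values not called scaled are on the deposited scale. The label genes were mixed: every library lists Slc32a1, which encodes vGAT, at 0, and Gad1, a GABA-synthesis gene, differed by -0.48 (adjusted p = 0.0649) and by -1.02 when scaled (0.00768). Camk2a was 0.87 higher in the excitatory libraries (adjusted p = 3.18e-04), and 0.33 when scaled (0.00677). Gad2 and Slc17a7, the other label genes checked, did not pass in either scaling. Gad2 differed by -0.08 (adjusted p = 0.824) and -0.62 when scaled (0.137), and Slc17a7 by 0.30 (0.182) and -0.24 when scaled (0.312). Markers of other cells were present in both labels. Of 10 astrocyte markers 8 were higher in the excitatory libraries and 0 in the inhibitory libraries, and the scaled counts were 5 and 2. Their summed level was 20.99 to 21.01 in excitatory and 20.21 to 20.30 in inhibitory libraries (scaled, 20.70 to 20.75 and 20.43 to 20.61). Of 8 oligodendrocyte markers 5 and 0 were higher (5 and 2 when scaled), with sums, in which Mbp has a large part, of 21.48 to 21.51 and 21.39. Scaled, these sums were lower in the excitatory libraries, at 21.20 to 21.24 against 21.61 to 21.70. Of 9 microglial and immune markers 0 and 6 were higher (0 and 8 when scaled), with sums of 15.13 to 15.23 and 16.44 to 16.73; Ptprc was at 0 in both excitatory libraries. Of the 8 neuronal markers 5 and 1 were higher (2 and 2 when scaled), with sums of 17.66 to 17.69 and 17.06 to 17.09. Of 5 precursor markers 1 and 2 were higher in either scaling, with sums of 11.50 to 11.64 and 12 to 12.32; Pdgfra and Cspg4 were at 0 in both excitatory and Gpr17 in both inhibitory libraries. Of 6 vascular markers 2 and 0 were higher, and Cldn5, Tek and Vtn were at 0 in all 4 libraries, with sums of 7.74 to 8.01 and 0 to 2.82. Of 4 red blood cell markers 1 and 3 were higher, with sums of 4.17 to 4.70 and 11.29 to 12.01. The part these cells play in the results below was not tested, and a change in the share of a cell type cannot be told apart from a change in its RNA per cell.

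Most of the cholesterol genes differed between the labels, and more of them were higher in the excitatory libraries. Of the 30 genes 29 passed the filter on low values, which asks for 1 or more in 2 or more libraries. The LXR gene Nr1h3, listed at 0 in all 4 libraries, did not pass it. Of the 29, 22 (75.9%) passed limma's moderated test at a Benjamini-Hochberg adjusted p of 0.05, against 71.8% of all genes tested. The excitatory libraries were higher for 18 genes (62.1%, against 45% of all genes) and the inhibitory libraries for 4 (13.8%, against 26.8%). Scaled, 18 passed (62.1%, against 65.9%), with 11 on the excitatory side (37.9%, against 32.4%) and 7 on the inhibitory side (24.1%, against 33.5%). In both scalings 15 genes passed in the same direction, 11 towards the excitatory and 4 towards the inhibitory libraries, and 0 in opposite directions, where 59.3% of all genes passed in the same direction. The median difference of the 29 genes was 0.95, beside 0.52 over all genes, and 0.41 beside -0.01 when scaled. The share that passed is therefore near the share of all genes in these tables. The values of the 2 labels did not overlap for 26 of the 29 genes (89.7%), as for 86.4% of all genes tested. In fits without any 1 library the median difference of the 29 genes was 0.81 to 1.10, beside 0.48 to 0.57 over all genes. The 11 that passed in each of these fits (32% of all genes did) were Mvk, Fdps, Lss, Msmo1, Hsd17b7, Ebp, Srebf2, Insig1 and Insig2, higher in the excitatory libraries, and Idi1 and Abca1, higher in the inhibitory libraries.

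**Figure D1:**
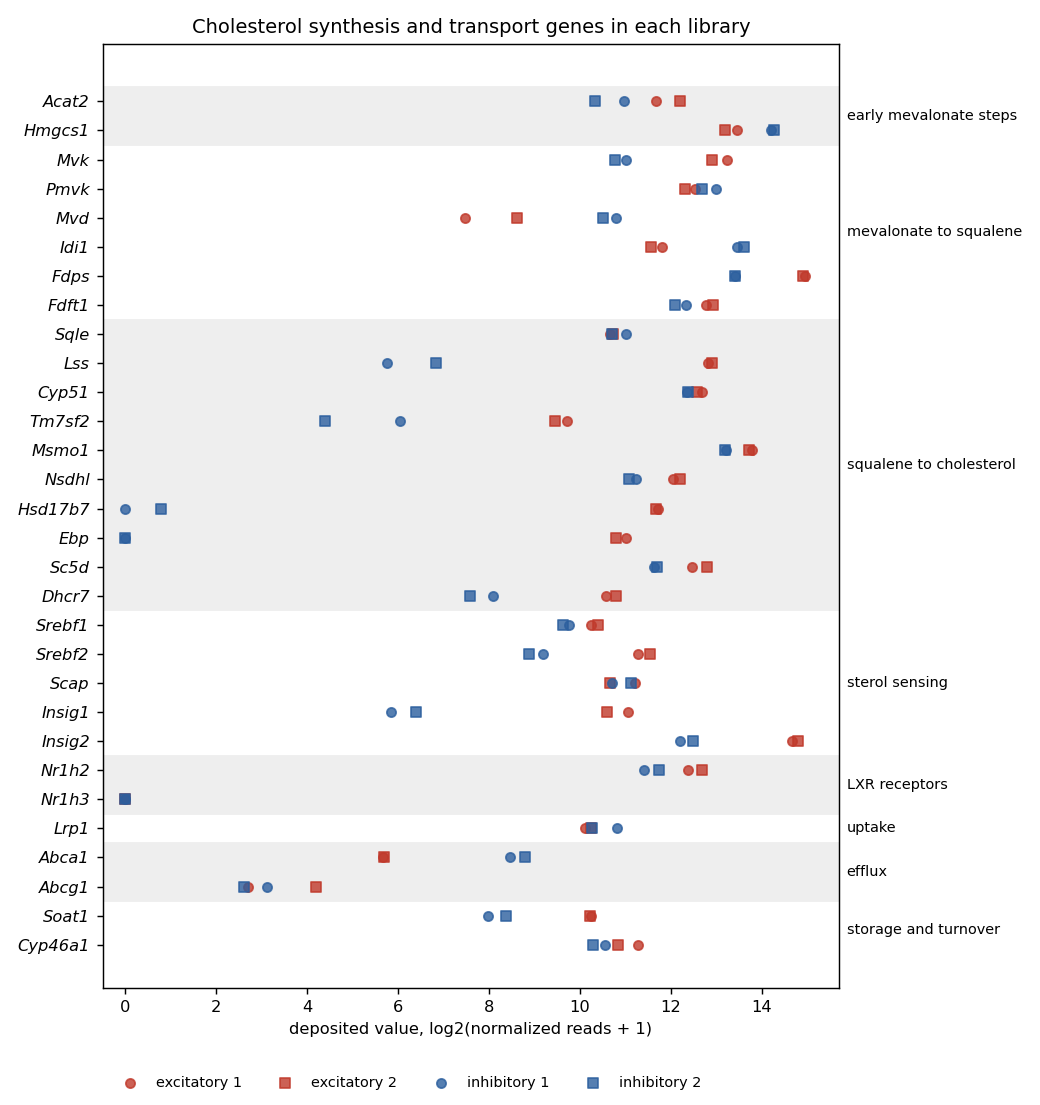
Deposited values of the 30 cholesterol genes, log2(normalized reads + 1), in the excitatory (red) and inhibitory (blue) libraries, with a circle for replicate 1 and a square for replicate 2, grouped by role. Ebp and Hsd17b7 lie between 10.79 and 11.72 in red and between 0 and 0.79 in blue, while Hmgcs1, Mvd, Idi1 and Abca1 have their blue points to the right.

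Sequences before the start sites of 6 genes with differences in both scalings are shown, because members of this pathway are known to share a sterol regulatory element, which SREBP binds, and CCAAT boxes, which NF-Y binds. These genes were chosen after their values were seen. Hmgcs1 and Mvd were higher in the inhibitory libraries, and Ebp, Hsd17b7, Lss and Insig1 in the excitatory libraries. The sequences are RefSeq's on GRCm38.p6, 5′ to 3′ on the gene's strand, and leave out bases that lie in an exon of the GENCODE M21 annotation. Capitals mark matches to TCACNCCAC, the sterol element, and to CCAAT, on either strand.
Hmgcs1, chr13:119690101-119690350, forward strand: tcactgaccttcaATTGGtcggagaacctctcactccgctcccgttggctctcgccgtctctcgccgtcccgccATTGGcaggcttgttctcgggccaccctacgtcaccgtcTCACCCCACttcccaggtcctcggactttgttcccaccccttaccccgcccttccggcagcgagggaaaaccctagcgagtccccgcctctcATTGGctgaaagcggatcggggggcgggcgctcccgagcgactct
Mvd, chr8:122443423-122443672, reverse strand: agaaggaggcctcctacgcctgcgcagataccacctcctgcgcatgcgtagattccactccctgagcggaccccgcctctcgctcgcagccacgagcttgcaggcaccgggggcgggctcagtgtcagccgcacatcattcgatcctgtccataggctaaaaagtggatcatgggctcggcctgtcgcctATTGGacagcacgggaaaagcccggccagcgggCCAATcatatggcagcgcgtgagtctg
Ebp, chrX:8193513-8193762, reverse strand: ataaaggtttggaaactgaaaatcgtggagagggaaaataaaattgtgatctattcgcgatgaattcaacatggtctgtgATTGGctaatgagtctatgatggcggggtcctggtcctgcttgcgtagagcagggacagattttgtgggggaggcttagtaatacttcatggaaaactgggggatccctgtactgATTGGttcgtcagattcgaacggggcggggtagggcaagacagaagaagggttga
Hsd17b7, chr1:169969242-169969408, reverse strand: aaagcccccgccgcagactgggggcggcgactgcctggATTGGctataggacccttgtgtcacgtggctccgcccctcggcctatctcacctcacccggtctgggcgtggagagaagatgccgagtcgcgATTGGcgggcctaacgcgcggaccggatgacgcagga
Lss, chr10:76531355-76531587, forward strand: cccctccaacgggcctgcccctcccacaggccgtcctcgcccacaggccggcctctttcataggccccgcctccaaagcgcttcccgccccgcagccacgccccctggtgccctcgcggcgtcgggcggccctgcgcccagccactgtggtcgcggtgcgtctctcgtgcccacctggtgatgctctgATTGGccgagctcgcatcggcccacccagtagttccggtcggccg
Insig1, chr5:28071162-28071362, forward strand: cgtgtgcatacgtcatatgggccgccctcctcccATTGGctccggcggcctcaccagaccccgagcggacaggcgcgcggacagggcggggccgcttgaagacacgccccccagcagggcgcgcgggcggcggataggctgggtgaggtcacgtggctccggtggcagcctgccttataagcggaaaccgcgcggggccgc
RefSeq promoters, from 250 bases before to 50 after a start, were given for 26 of the 30 genes, with 35 start sites. The sterol element was matched in 1 of the 35 windows (2.9%), that of Hmgcs1 at position -137 from the start, beside 1.24% of all 32851 windows. A CCAAT box was matched in 21 of the 35 windows (60.0%), beside 37.4% of all windows, and in 20 of the 26 genes, beside 41.1% of all genes with a promoter. The LXR element, 2 AGGTCA repeats set 4 bases apart, was matched in 0 of the 35 windows and 0.015% of all windows. CCAAT matches stood before genes of both directions: Hmgcs1 held 3 and Mvd 2 in the stretches shown, Ebp and Hsd17b7 2 each, and Lss and Insig1 1 each. A match describes letters only, and the search says nothing of binding.

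The first enzymes of the pathway went in both directions. Hmgcs1, the gene of the synthase that makes HMG-CoA, stood at 13.45 and 13.18 in excitatory and at 14.19 and 14.26 in inhibitory libraries. It was thus higher in the inhibitory libraries, 1.89-fold (difference -0.92, SE 0.129, adjusted p = 0.00284; scaled -1.46, 0.000553), and missed the threshold without inhibitory replicate 1 or 2, at differences of -0.95 and -0.88 (adjusted p = 0.0753 and 0.0816). Acat2, the gene of a cytosolic thiolase that joins acetyl-CoA units, had 11.67 and 12.19 against 10.97 and 10.32. Its 2.43-fold excess in the excitatory libraries (adjusted p = 0.0182) did not pass when scaled (0.127) or without any 1 library (0.088 to 0.208). Acat3, a close copy that shares 43.7% of the 31-base words of the Acat2 transcripts, was also higher in the excitatory libraries (1.05, adjusted p = 0.012), so reads of both genes may be mixed.

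From mevalonate to squalene, genes of the chain differed in both directions, and some neighbours, such as Mvd and Idi1, went the same way. Mvk, the kinase gene that starts this stretch, stood at 13.24 and 12.89 in excitatory and at 11.01 and 10.77 in inhibitory libraries, a 4.5-fold excess (2.17, SE 0.192, adjusted p = 0.000635; scaled 1.63, 0.0021). Pmvk, the next kinase gene, had 12.53 and 12.31 against 12.98 and 12.67, and missed the threshold (-0.40, adjusted p = 0.0878) but passed when scaled (-0.95, 0.00977). Mvd, whose decarboxylase makes isopentenyl pyrophosphate, had 7.46 and 8.61 against 10.78 and 10.51. The excitatory libraries were thus lower for Mvd and spread over more than 1 unit, where the inhibitory libraries were close together. Mvd differed by -2.61 (SE 0.443, 6.11-fold, adjusted p = 0.00539; scaled -3.15, 0.00447) and missed the threshold without inhibitory replicate 1 or 2 (0.138 and 0.119). Idi1, the gene of the isomerase that converts that product, stood at 11.81 and 11.55 in excitatory and at 13.46 and 13.61 in inhibitory libraries. It was 3.62-fold higher in the inhibitory libraries (-1.86, SE 0.154, adjusted p = 0.000523; scaled -2.40, 0.000226).

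Fdps and Fdft1 complete this stretch. Fdps, whose enzyme makes farnesyl pyrophosphate, stood at 14.95 and 14.90 in excitatory and at 13.41 and 13.40 in inhibitory libraries. Replicates agreed closely for this gene, and the 2.86-fold excess (1.52, SE 0.0847, adjusted p = 1.75e-04) remained past the threshold when scaled (0.97, 9.00e-04). Fdft1, the gene of squalene synthase, had 12.76 and 12.93 against 12.32 and 12.08, a difference of 0.65 (adjusted p = 0.0162) that was 0.10 when scaled (0.634). Without any 1 library it was 0.53 to 0.77 and missed the threshold (0.0631 to 0.135). Of the 6 genes of this stretch 3 therefore passed towards the excitatory and 2 towards the inhibitory side, and 2 and 3 when scaled. The shares of all genes tested in these directions were 45% and 26.8%, and 32.4% and 33.5% when scaled.

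The enzymes from squalene to cholesterol were higher in the excitatory libraries for 8 of 10 genes and in the inhibitory libraries for 0, and 5 and 1 when scaled. Of all genes tested, 45% and 26.8% passed in these directions, and 32.4% and 33.5% when scaled. The largest of these differences were in Ebp, Hsd17b7 and Lss, which had values near 0 or far lower in the inhibitory libraries. Ebp, the gene of the sterol isomerase, stood at 11.01 and 10.79 in excitatory libraries, and both inhibitory libraries list it at 0 (adjusted p = 9.49e-05 and 1.24e-04 when scaled). Hsd17b7, whose enzyme reduces the 3-keto group during demethylation, had 11.72 and 11.68 against 0 and 0.79 (adjusted p = 9.49e-05; scaled 1.24e-04). No fold is given for either gene, since a listed 0 sets no scale. A listed 0 in both libraries of 1 label together with a call was found for 15.4% of all genes tested, and was not read as absence.

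Lss, the gene of lanosterol synthase, stood at 12.82 and 12.89 in excitatory and at 5.75 and 6.83 in inhibitory libraries, a 94.9-fold excess (6.57, SE 0.408, adjusted p = 2.32e-04; scaled 6.03, 3.38e-04). Tm7sf2, one of the genes for the sterol C14 reductase, had 9.71 and 9.44 against 6.05 and 4.39, a difference of 4.36 (SE 0.618, adjusted p = 0.00294; scaled 3.82, 0.00675). It missed the threshold without excitatory replicate 1 or 2 (0.117 and 0.108). Dhcr7, whose reductase carries out a late step of the pathway, had 10.57 and 10.80 against 8.09 and 7.58. Its 7.23-fold excess (2.85, SE 0.279, adjusted p = 8.72e-04; scaled 2.31, 0.00286) was of like size without excitatory replicate 2 (2.74), where it missed the threshold (0.0537).

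The other enzymes of this stretch differed by less than 1 unit. Msmo1, the sterol methyl oxidase gene, stood at 13.77 and 13.72 in excitatory and at 13.21 and 13.18 in inhibitory libraries (0.55, SE 0.0984, adjusted p = 0.00629), and its scaled difference was 0.01 (0.929). Nsdhl, the decarboxylating dehydrogenase gene that acts after it, had 12.04 and 12.19 against 11.23 and 11.07 (0.96, adjusted p = 0.00468; scaled 0.42, 0.0917). That call was lost without excitatory replicate 2 (0.0571) or inhibitory replicate 2 (0.0503). Sc5d, the sterol C5 desaturase gene, had 12.45 and 12.78 against 11.63 and 11.69 (0.95, adjusted p = 0.0062; scaled 0.41, 0.11). It missed the threshold without inhibitory replicate 1 or 2 (0.101 and 0.0934). Cyp51, the lanosterol demethylase gene, had 12.68 and 12.57 against 12.34 and 12.38 and did not pass (0.27, adjusted p = 0.11), with a scaled difference of the opposite sign (-0.27, 0.102). Sqle, the squalene epoxidase gene, had 10.65 and 10.72 against 11.01 and 10.71, with overlapping labels (-0.17, adjusted p = 0.453), and its scaled difference of -0.72 passed (0.0359).

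**Figure D2:**
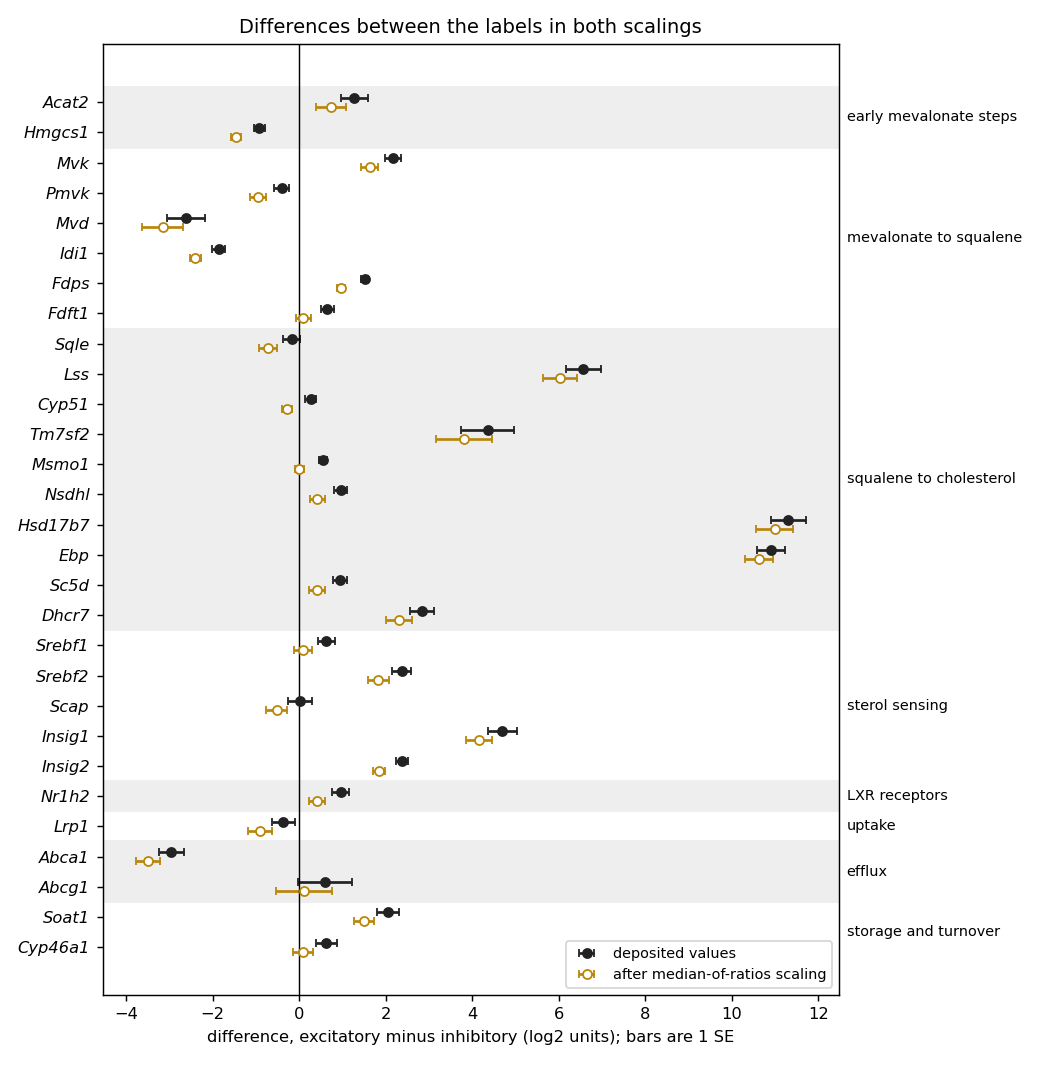
Difference of each of the 29 tested cholesterol genes between the labels, excitatory minus inhibitory in log2 units, in the deposited values (filled) and after median-of-ratios scaling (open), with bars of 1 SE from limma. Hsd17b7, Ebp and Lss lie farthest to the right in both scalings, and Abca1, Mvd, Idi1 and Hmgcs1 lie left of 0 in both.

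Genes of the sterol sensor were higher in the excitatory libraries for 4 of 5 genes and in the inhibitory libraries for 0, and for 3 and 0 when scaled. The shares of all genes were again 45% and 26.8%, and 32.4% and 33.5% when scaled, and Srebf1, 1 of the 4, lost its call without any 1 library. Insig1, the INSIG gene that SREBP itself induces, stood at 11.05 and 10.59 in excitatory and at 5.85 and 6.39 in inhibitory libraries, a 26-fold excess (4.70, SE 0.332, adjusted p = 3.30e-04; scaled 4.16, 4.80e-04). Insig2, its paralog, had 14.65 and 14.80 against 12.20 and 12.49, a 5.21-fold excess (2.38, SE 0.143, adjusted p = 2.14e-04; scaled 1.84, 4.96e-04). Per kilobase of exons, Insig2 had levels of 12.93 and 10.56 and Insig1 of 9.21 and 4.56 in excitatory and inhibitory libraries, on a log2 scale explained below.

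Srebf2, the gene of the SREBP that mainly drives cholesterol synthesis, stood at 11.27 and 11.54 in excitatory and at 9.19 and 8.88 in inhibitory libraries. This was a 5.17-fold excess (2.37, SE 0.225, adjusted p = 7.89e-04; scaled 1.83, 0.00312). Srebf1, whose proteins mainly drive fatty acid synthesis, had 10.24 and 10.39 against 9.76 and 9.62 (0.63, SE 0.198, adjusted p = 0.0404). That call was lost when scaled (0.09, adjusted p = 0.737) and without any 1 library (0.0799 to 0.112). Scap, the escort gene, had 11.20 and 10.66 against 10.71 and 11.11. Its labels overlapped (0.02, adjusted p = 0.958), and its scaled difference of -0.52 did not pass (0.122).

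Among genes of LXR, uptake, efflux and turnover, Abca1 and Soat1 differed in both scalings, in opposite directions. Abca1, the pump that loads cholesterol onto lipoproteins and a target of LXR, stood at 5.66 and 5.69 in excitatory and at 8.46 and 8.79 in inhibitory libraries. It was 7.72-fold higher in the inhibitory libraries (-2.95, SE 0.296, adjusted p = 9.38e-04; scaled -3.49, 6.24e-04). Soat1, whose enzyme esterifies cholesterol for storage, had 10.24 and 10.21 against 7.97 and 8.38. Its excitatory excess was 4.15-fold (2.05, SE 0.25, adjusted p = 0.00177; scaled 1.51, 0.00465) and missed the threshold without excitatory replicate 1 or 2 (0.0595 and 0.0586).

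Nr1h2, the gene of LXRβ, stood at 12.38 and 12.68 in excitatory and at 11.41 and 11.73 in inhibitory libraries (0.96, SE 0.192, adjusted p = 0.00938). It did not pass when scaled (0.42, 0.117) or without any 1 library (0.0693 to 0.118). Lrp1, the gene of a large receptor that takes up lipoproteins, had 10.11 and 10.23 against 10.81 and 10.26 (-0.36, adjusted p = 0.259). Its scaled difference of -0.91 passed (0.0435). Abcg1, another efflux pump gene and LXR target, was low, with 2.70 and 4.20 against 3.11 and 2.61, and its labels overlapped (0.60, adjusted p = 0.434; scaled 0.12, 0.885). Cyp46a1, the neuronal cholesterol hydroxylase gene, had 11.28 and 10.83 against 10.55 and 10.29. Its difference of 0.63 (SE 0.237) did not pass (adjusted p = 0.0656; scaled 0.09, 0.754).

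Levels of different genes were compared per kilobase of annotated exons (all isoforms of GENCODE M21 joined), as log2 of the mean linear value per kilobase plus 1, and are a description. On this scale Insig2 (12.93), Fdps (12.85), Mvk (11.65) and Pmvk (11.65) led the 30 genes in the excitatory libraries. In the inhibitory libraries Pmvk (12.06), Hmgcs1 (12.03), Idi1 (11.73) and Fdps (11.33) led. Mvk stood at excitatory rank 3 and inhibitory rank 12, Idi1 at rank 13 and rank 3, and Mvd at rank 25 and rank 10. Lss moved from rank 15 to rank 26. The efflux pump gene Abcg1 was low on this scale in both labels, with 1.36 in excitatory and 0.90 in inhibitory libraries. Abca1 had 2.54 (rank 28) in excitatory and 5.29 (rank 22) in inhibitory libraries.

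Exons of 6 of the 30 genes overlap those of another annotated gene that codes for protein or has a deposited value. Other overlapping annotations were not counted, and the kits used are not described as marking strand. Lss overlaps 4930483K19Rik on the opposite strand by 381 bases, and that gene was also higher in the excitatory libraries (4.67, adjusted p = 8.36e-04). Tm7sf2 overlaps Vps51 on the same strand by 532 bases, and Vps51 was higher in the excitatory libraries as well (3.38, adjusted p = 5.52e-04). Cyp51 overlaps Akap9 (2.22, adjusted p = 7.67e-04), Fdft1 overlaps Ctsb (0.43, 0.0509) and Srebf1 overlaps Rai1 (0.81, 0.049). Srebf1 also holds Mir6922 on its own strand, over 109 bases, and both inhibitory libraries list that microRNA gene at 0, beside 5.18 and 5.79 in excitatory libraries (adjusted p = 3.80e-04). Fdps overlaps a read-through gene model on its own strand. Values of these genes are uncertain where the counting assigned shared reads to either gene. Ebp, Hsd17b7, Insig1, Idi1, Mvd and Abca1 have no overlap with such a gene in the annotation.

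**Figure D3:**
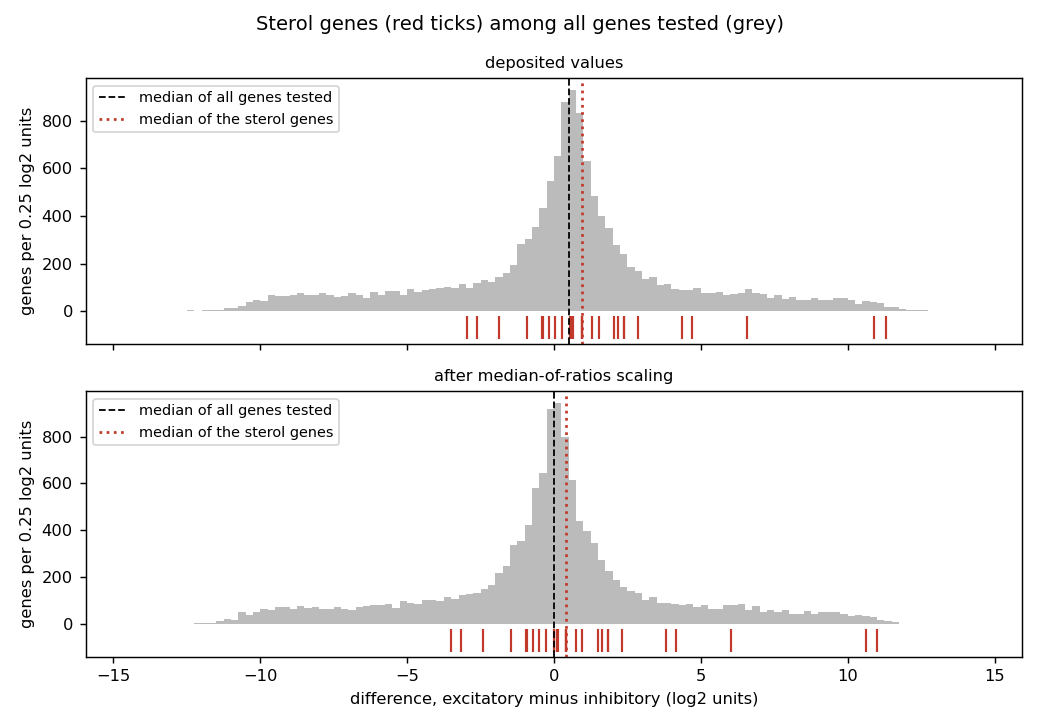
Histogram of the difference between the labels (excitatory minus inhibitory, log2 units) over the 13619 genes tested, in the deposited values and after median-of-ratios scaling, with a red tick for each of the 29 tested cholesterol genes. The dotted line, their median, lies at 0.95 and 0.41, to the right of the dashed median of all genes at 0.52 and -0.01, and all 29 ticks lie within the range of the other genes.

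A further list of 71 genes of sterol handling, with none of the 30 above, was read from the same fit. Of these 69 are in the tables and 56 were tested. The excitatory libraries were higher for 27 (48.2%, against 45% of all genes) and the inhibitory libraries for 14 (25%, against 26.8%). Scaled, the counts were 20 (35.7%, against 32.4%) and 17 (30.4%, against 33.5%). Among 15 genes of sterol sensing and of the degradation of pathway enzymes, 6 were higher in each label (5 and 7 when scaled). These and the next counts stand beside the same shares of all genes, and no group was tested as a set. Among 18 tested genes of intracellular transport and efflux, 9 passed towards the excitatory and 6 towards the inhibitory side (8 and 6 when scaled). Among 12 tested genes of lipoproteins and uptake the counts were 8 and 1 (4 and 2 when scaled), among 6 further synthesis genes 2 and 1 (2 and 2), and among 5 genes of esters and oxysterols 2 and 0 (1 and 0).

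Stard3 and Stard4, of the same family of sterol carriers, stood on opposite sides, but they were picked for small p in each direction. Their listed relatives Stard5 (7.84 and 7.47 against 2.51 and 3.80, adjusted p = 0.00176) and Star were both higher in the excitatory libraries. Star had 4.27 and 3.11 there and is listed at 0 in both inhibitory libraries (adjusted p = 0.00296). Stard3, the gene of a cholesterol transfer protein of late endosomes, stood at 10.32 and 11.02 in excitatory libraries, and both inhibitory libraries list it at 0 (adjusted p = 9.49e-05). Stard4, the gene of a cytosolic sterol carrier, is listed at 0 in both excitatory libraries and stood at 10.19 and 9.57 in inhibitory ones (adjusted p = 9.49e-05). The oxysterol-binding protein gene Osbp was 4.12 higher in the excitatory libraries (11.12 and 10.79 against 7.16 and 6.52, adjusted p = 4.53e-04). Its relative Osbpl2 was higher in the inhibitory libraries (7.99 and 7.07 against 11.65 and 11.52, adjusted p = 6.93e-04). It missed the threshold without inhibitory replicate 1 or 2, at differences of -3.99 and -4.12 (adjusted p = 0.06 and 0.0571).

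In the group of sensing and degradation, 3 genes named by their small p were higher in the inhibitory libraries. Erlin1, whose product works with ubiquitin ligases in the endoplasmic reticulum, stood at 1.98 and 1.90 in excitatory and at 11.01 and 11.13 in inhibitory libraries (-9.13, SE 0.297, adjusted p = 9.49e-05). The excitatory values of Erlin1 are low, and its difference was -7.39 with 10 instead of 1 added before the log. Its partner gene Erlin2 had 6.02 and 5.55 against 9.80 and 9.63 (-3.93, adjusted p = 4.33e-04). The ubiquitin ligase gene Rnf139 had 6.99 and 7.00 against 10.25 and 9.91 (-3.09, adjusted p = 5.42e-04). These 3 genes had both inhibitory values above both excitatory values. They were picked for small p on that side, so this adds no support. Labels did not overlap, in either direction, for 86.4% of all genes.

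The remaining genes of this list with the smallest p-values act in several compartments. Lipa, the gene of the lysosomal lipase that frees cholesterol from esters, stood at 7.10 and 6.51 in excitatory and at 0.47 and 0.78 in inhibitory libraries (6.18, adjusted p = 2.76e-04). Its inhibitory values lie near 0, and the difference was 3.52 with 10 instead of 1 added before the log. Abcg4, a brain sterol efflux pump gene, stood at 5.41 and 5.82 in excitatory libraries, and both inhibitory libraries list it at 0 (adjusted p = 2.84e-04). Dhdds, whose enzyme uses farnesyl pyrophosphate to make dolichol, had 10.25 and 10.07 against 5.17 and 5.76 (4.70, adjusted p = 3.16e-04). Apod, a lipid-carrier gene of glia, had 14.90 and 14.48 against 12.34 and 12.29 (2.37, adjusted p = 3.27e-04). All 11 genes named from this list by their small p passed in the same direction when scaled (adjusted p = 1.24e-04 to 0.00102), as 59.3% of all genes did. They were picked for small p in the same libraries, so this adds no support.

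**Figure D4:**
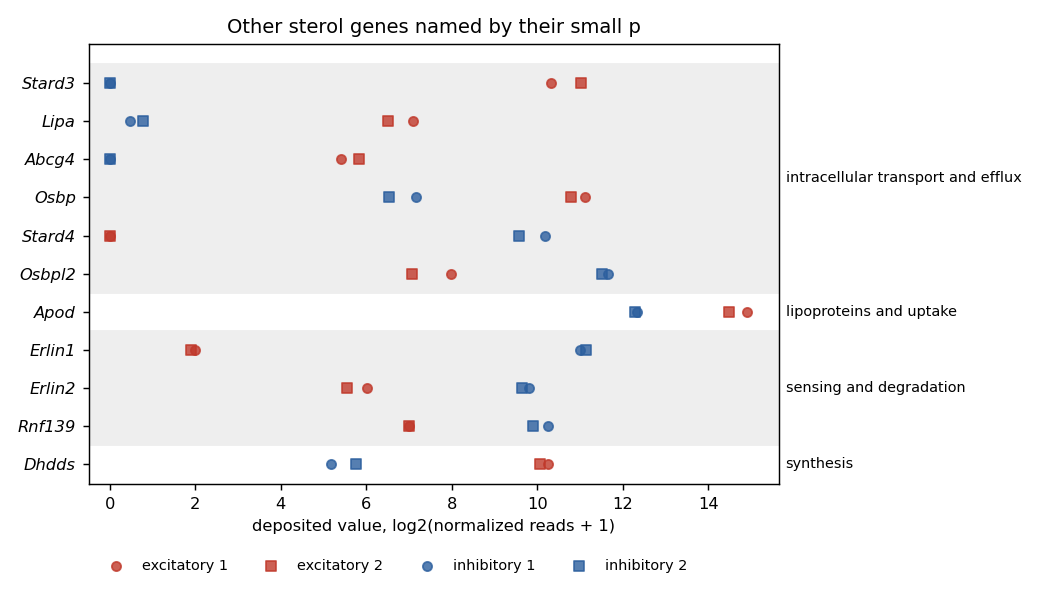
Deposited values, log2(normalized reads + 1), of 11 further sterol genes named by their small p, 6 higher in the excitatory and 5 higher in the inhibitory libraries, in the excitatory (red) and inhibitory (blue) libraries, with a circle for replicate 1 and a square for replicate 2. Stard3 and Stard4 lie at 0 in opposite labels, and Erlin1 has red points near 1.9 and blue points near 11.1.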

How the data were processed

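RNA was profiled in 4 libraries, 2 per label. Each gene has 1 value per library in the authors' tables, deposited on a log2 scale as log2(normalized reads + 1). TopHat and edgeR with build mm10 are named in the submitters' processing notes, without versions or roles, and no counter, annotation or normalization is named there. The log base was settled from the low values, which form evenly spaced bands on the linear scale. Reads were estimated as the linear sum divided by that spacing, so no counting interval is given and count models were not run. The plan allowed for counts or log2 values, and the second was used.

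In R 4.3.3, limma 3.58.1 with a mean-variance trend was fitted to 13619 genes that reached 1 in 2 or more libraries, and p-values were adjusted over all of them (Benjamini-Hochberg) with a threshold of 0.05. The test was also run on simulated data drawn from the fitted means and spreads, and that run is not reported here. As alternatives the libraries were scaled by median of ratios or upper quartile, with further fits that used a pseudocount of 10, other filters, no trend, a replicate block and leaving out each library. Median chi-square between replicates was 51.2 and 56.1 times counting error, so no library was counted as a copy. The genes and lists were chosen with earlier results of these data known. Each of the 30 genes is named, and of the other sterol genes the 6 with the smallest p in each direction, 1 of which is not reported here. Positions and overlaps are from GENCODE M21 (GRCm38, the build of mm10), and promoters from RefSeq.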

Additional observations from a re-analysis of the deposited data

How the results depend on the processing

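The replicate numbers did not pair the libraries (correlation of same-numbered deviations -0.008 over 10097 genes). With the replicate block 22 cholesterol genes passed, 18 and 4 by direction, and 9782 of all genes; Cyp46a1 gained its call (adjusted p = 0.0468) and Srebf1 lost it (0.0739). By median-of-ratios or upper-quartile scaling 11 cholesterol genes passed towards the excitatory side and 7 towards the inhibitory side, with median differences of 0.41 and 0.43. Cyp51 changed sign under these scalings (-0.27 and -0.25), as did Scap (-0.52 and -0.50); neither passed in any of the fits run. Without 1 library, Scap ranged from -0.25 to 0.28 and Abcg1 from -0.15 to 1.35. In those fits 14 to 16 cholesterol genes passed, 10 to 13 of them excitatory-high and 2 to 4 inhibitory-high, beside 25 to 29 of the other sterol genes. Of all genes 6103 to 6551 then passed, 3530 to 4241 and 2310 to 2627 by direction. With a mean of at least 5 required, 10097 genes were tested and Srebf1 lost its call (0.0508). Of these genes 2317 (22.9%, against 26.8% in the main fit) were higher in the inhibitory libraries. Without the trend Fdft1 (0.0532) and Msmo1 (0.0525) lost theirs. The pseudocount of 10 and no filter left each of the 29 genes on its side of the threshold. What caused these changes was not tested. Depth is only an estimate, and 2 libraries per label limit the precision.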
